A study of Mus musculus with 21 samples.

Results

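The 10 genes described here are the clade B serpins Serpinb5, Serpinb12, Serpinb13, Serpinb3a, Serpinb3d, Serpinb3b, Serpinb3c, Serpinb7, Serpinb2 and Serpinb8, given in their order along mouse chromosome 1. They were taken by name, 10 of the 49315 gene identifiers in the deposited count files, and each name matched 1 identifier. The study asked what Tfap2a and Tfap2b, which encode transcription factors of the AP-2 family (AP-2α and AP-2β), do in mouse epidermis, and sequenced RNA of that tissue after depletion of ribosomal RNA. Of its 21 samples in 7 groups of 3, only 8 files held counts, because every gene was listed at 0 in 13 of the 15 files from mice of 3 weeks. The comparison is between 3 libraries labelled as K14CreTfap2afl/flTfap2bfl/fl double knockouts, abbreviated dKO, and 3 libraries of the strain-specific control, labelled WT, all at 6 months of age. The double knockout carries floxed alleles of both genes and a Cre recombinase driven by the promoter of keratin 14, which is active in basal keratinocytes, so cells of other lineages in the tissue keep both genes. The other 2 libraries with counts, labelled Tfap2b knockout (K14CreTfap2bfl/fl) at 3 weeks, have no control of that age with counts and are given as values only.

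Serpins inhibit proteases by offering a reactive centre loop as bait. The target protease cuts the loop, which then inserts into the body of the serpin and traps the enzyme. Clade B serpins lack a classical signal peptide and act largely inside cells, and in stratified epithelia many of them are made by differentiating keratinocytes, where cathepsins and kallikrein-like serine proteases take part in cornification and shedding.

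The 10 genes lie in 1 tandem cluster of 749 kb on GRCm38, chr1:106861173-107610484, from Serpinb5 to Serpinb8. The 4 Serpinb3 genes, on the minus strand, are close copies of each other and are related to the human squamous cell carcinoma antigens. Their coding sequences in the GENCODE M21 transcripts were 86.3% to 93.1% identical in the 6 pairs among them, against 51.35% to 62.0% in the other 39 pairs of members. The coding stretch of the reactive centre loop, from the hinge to the conserved codons after it, is shown because it sets which protease a serpin meets and because it shows how far the copies can be told apart. Capitals mark bases that differ from Serpinb3a in a pairwise alignment, and each stretch lies on the minus strand of GRCm38, at chr1:107046082-107046174 for Serpinb3a, chr1:107154435-107154527 for Serpinb3b, chr1:107271695-107271784 for Serpinb3c and chr1:107078259-107078351 for Serpinb3d.
Serpinb3a: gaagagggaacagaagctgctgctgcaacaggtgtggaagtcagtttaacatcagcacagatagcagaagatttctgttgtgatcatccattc
Serpinb3b: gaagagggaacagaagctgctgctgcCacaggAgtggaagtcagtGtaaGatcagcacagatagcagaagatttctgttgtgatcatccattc
Serpinb3c: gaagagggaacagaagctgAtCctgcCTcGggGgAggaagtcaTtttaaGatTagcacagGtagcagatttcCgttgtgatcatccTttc
Serpinb3d: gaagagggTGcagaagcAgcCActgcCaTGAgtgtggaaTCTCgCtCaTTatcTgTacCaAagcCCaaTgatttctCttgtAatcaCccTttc
The Serpinb3b loop was identical to that of Serpinb3a at 89 of 93 aligned positions, Serpinb3c at 77 of 93 and Serpinb3d at 65 of 94.

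Reads of 150 bases can tell these copies apart at most places. Of the 1471 windows of 150 bases in the Serpinb3a transcript, 50 (3.40%) occurred unchanged in a transcript of another gene, in each case the neighbouring pseudogene Gm8080. None of the windows of the other 9 members occurred in another gene. This count takes only exact matches, and reads with mismatches can still be placed at a wrong copy. The deposited model of Serpinb3b reaches into Serpinb3c and shares 35 exonic bases with it (2.07% of Serpinb3b), and Serpinb2 shares 291 exonic bases (12.4%) with Serpinb10.

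The 250 bases before the annotated start are shown for Serpinb3a, Serpinb3b and Serpinb3c, because these near copies differed widely in their counts (RefSeq, GRCm38.p6, minus strand, chr1:107052304-107052553, chr1:107161115-107161364 and chr1:107278372-107278621). The deposited model of Serpinb3b begins at 107278361, beside that of Serpinb3c at 107278371, so the Serpinb3b window shown lies inside that model. From which start the Serpinb3b counts came was not tested. Capitals mark the letters TATAAA, searched on both strands and present in 13.6% of 32851 promoter windows of 300 bases and in 7 of the 9 members with an entry.
Serpinb3a: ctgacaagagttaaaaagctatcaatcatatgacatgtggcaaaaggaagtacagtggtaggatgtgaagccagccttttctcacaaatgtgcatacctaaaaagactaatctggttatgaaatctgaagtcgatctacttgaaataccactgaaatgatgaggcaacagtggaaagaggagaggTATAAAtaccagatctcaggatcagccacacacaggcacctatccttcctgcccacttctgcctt
Serpinb3b: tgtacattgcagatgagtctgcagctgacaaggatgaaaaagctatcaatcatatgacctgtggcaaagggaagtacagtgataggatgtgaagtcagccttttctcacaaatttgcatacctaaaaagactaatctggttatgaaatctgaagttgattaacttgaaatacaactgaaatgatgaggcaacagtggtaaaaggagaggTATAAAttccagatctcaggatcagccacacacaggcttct
Serpinb3c: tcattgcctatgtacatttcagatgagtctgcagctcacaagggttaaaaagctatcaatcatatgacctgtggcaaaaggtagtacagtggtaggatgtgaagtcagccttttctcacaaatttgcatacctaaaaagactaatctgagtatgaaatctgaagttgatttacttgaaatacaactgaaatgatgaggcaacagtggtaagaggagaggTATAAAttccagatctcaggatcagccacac
Over the whole windows of 300 bases, those of Serpinb3b and Serpinb3c were 90.0% identical, and that of Serpinb3a was 79.3% identical to Serpinb3b and 74.6% to Serpinb3c. The letters GCCNNNGGC, a core motif of AP-2 factors that reads the same on both strands, were in 16.6% of all windows and in 0 of the 11 windows of 9 members, which says only that these letters are not in these windows.

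The libraries at 6 months held 11318181 to 17746284 counts. Libraries are called as they were labelled, since gene counts of Tfap2a were not lower in the libraries labelled dKO (140.3 to 210.1 CPM in controls, 213 to 309 CPM in those libraries) and those of Tfap2b were at 57.3 to 86.6 against 53.8 to 57.2 CPM (edgeR adjusted p 0.118 for Tfap2a and 0.111 for Tfap2b). CPM are counts scaled to the total of the library, and a count over a whole gene also takes in exons outside a deletion. Keratinocyte markers were high in every library, with 8224 to 18754 CPM summed over 7 basal genes and 11685 to 16211 CPM over 6 suprabasal genes at 6 months. Control replicates 1 and 2 held 1.61 and 3.19 counts per exonic kb in odorant and vomeronasal receptor genes, against 0.0970 to 0.195 in the other 6 libraries, which corresponds to 1.96 to 15.3 counts per member in those 2 controls. That density touches the low members Serpinb3a, Serpinb3c, Serpinb3d and Serpinb13. Sebaceous markers summed to 746 to 911 CPM across the controls, against 194 to 242 CPM in the libraries labelled dKO. Most of that sum was Scd1, at 718 to 848 CPM across the controls and 168 to 224 CPM in the libraries labelled dKO. Plin2 was lower too, Soat1 and Elovl3 did not pass, and Mc5r and Awat1 were not tested. Control replicate 3 lay nearer to the libraries labelled dKO than the other controls did for Serpinb3b, as given with that gene. The labels do not say that the samples came from separate mice, so p-values measure only the spread between these samples. In such bulk samples fewer cells of a type and less RNA per cell cannot be told apart.

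At 6 months the cluster did not move as a block. Serpinb3a rose and Serpinb7 fell in the libraries labelled dKO, and Serpinb5, Serpinb8 and Serpinb13, whose groups overlapped, did not pass the threshold. Serpinb3a met the filter on low counts only through the libraries labelled dKO, and it passed in 11 of 14 alternatives. Over all 17755 genes tested with edgeR's quasi-likelihood test, 14.9% passed an adjusted p of 0.05, 6.26% as higher and 8.59% as lower. Of the 8 tested members, 1 was higher, 1 was lower and 6 did not pass. The other 2 of the 10 (Serpinb3c and Serpinb3d) had too few counts to be tested. With only 8 members tested, the share called cannot be set apart from that of all genes. The 3 libraries of one group lay all above those of the other for 5 of the 8 tested members (Serpinb2, Serpinb3a, Serpinb3b, Serpinb7 and Serpinb12). Over all tested genes, 38.7% had groups that did not overlap (22.5% with the dKO group above and 16.3% with it below). Summed over the 10 members, the cluster held 2761 to 3275 CPM across the controls, against 2306 to 2829 CPM in the libraries labelled dKO.

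**Figure D1:**
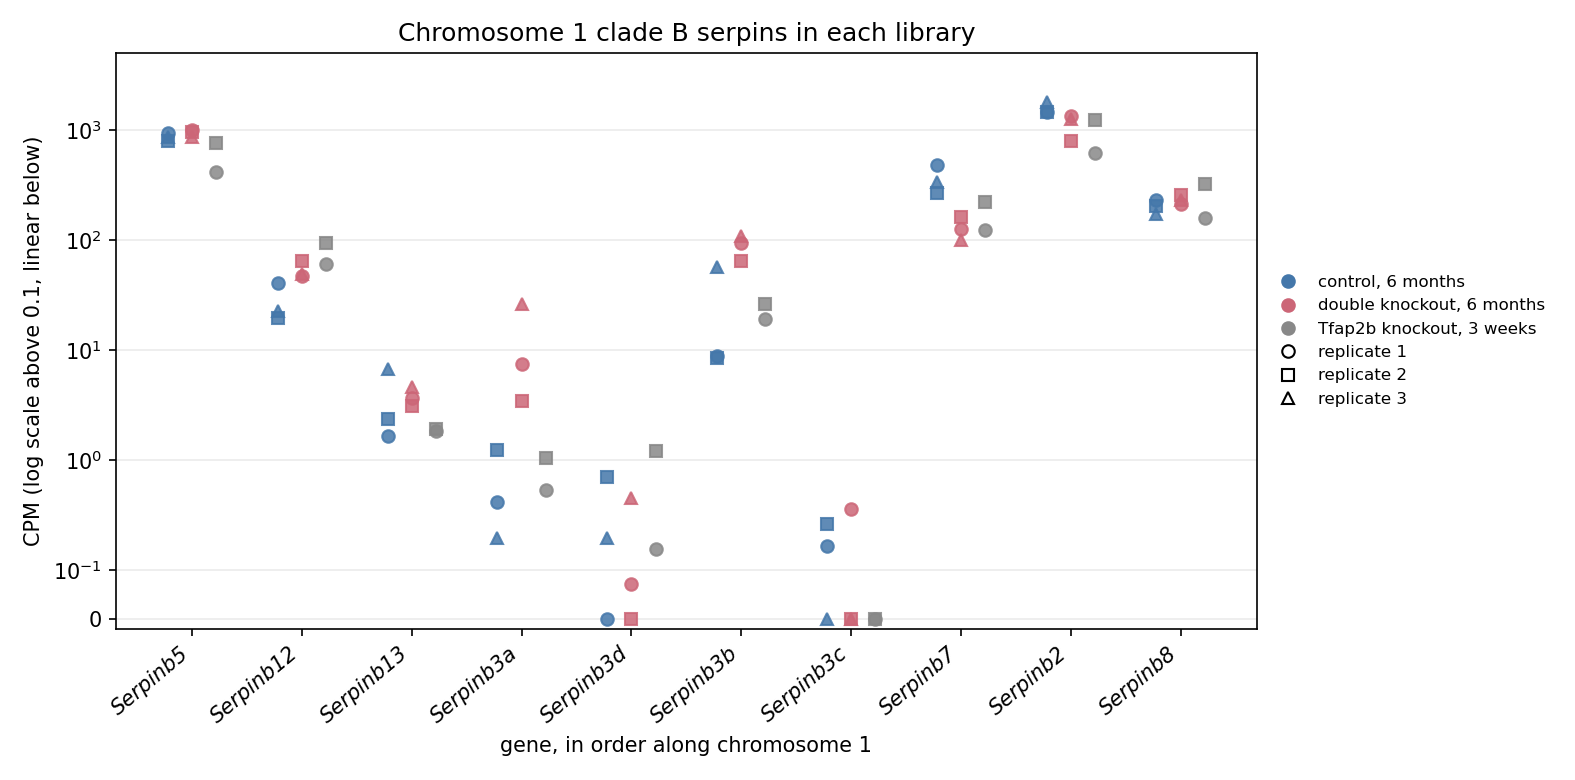
CPM (vertical axis, logarithmic above 0.1 and linear below) of each member (horizontal axis, in chromosome order) in the 3 control and 3 double knockout libraries at 6 months and the 2 Tfap2b knockout libraries at 3 weeks, 1 point per library. Serpinb7 is lower in all 3 double knockout libraries, Serpinb3a is higher in all 3, and for Serpinb3b control replicate 3, at 56.8 CPM, lies just below the lowest double knockout library at 63.7 CPM.

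Per exonic length, the levels of the members in the controls spanned from Serpinb2 at 671 ± 86.5 CPM per kb to Serpinb3c at 0.0866 ± 0.0807 CPM per kb (SD, n = 3). Serpinb5 came next after Serpinb2, at 314 ± 25.04 CPM per kb, followed by Serpinb7 at 184 ± 54.9 and Serpinb8 at 42.2 ± 5.92 CPM per kb. The control ranges of these 4 did not overlap. Serpinb3b (14.6 ± 16.5 CPM per kb) and Serpinb12 (11.002 ± 4.54) overlapped each other, then came Serpinb13 at 2.16 ± 1.65, and Serpinb3a, Serpinb3d and Serpinb3c, all under 1 CPM per kb, could not be ordered beyond their spread. In the libraries labelled dKO Serpinb3b stood at rank 4 by mean, at 52.6 ± 13.7 CPM per kb, beside Serpinb8 at 48.7 ± 4.24 CPM per kb.

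Serpinb3b supplied most counts of the Serpinb3 group. These serpins are inhibitors of papain-like cysteine proteases and, in some copies, of serine proteases. Serpinb3b (ENSMUSG00000073602, chr1:107153940-107278361) held 8.80, 8.48 and 56.8 CPM in control replicates 1, 2 and 3, against 93.4, 63.7 and 109 CPM in the libraries labelled dKO, from 96 to 1938 counts. Controls 1 and 2 were low and alike, control 3 was several times higher, and all 3 libraries labelled dKO were higher still, without overlap. The fitted log2 change was 1.77 (SE 0.83), and it did not pass the threshold in edgeR's quasi-likelihood test (adjusted p 0.214). Without control replicate 3 it was 3.35 and passed (adjusted p 0.000351 by edgeR), and it also passed under limma-voom at 2.23 (limma adjusted p 0.0343).

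Serpinb3a (ENSMUSG00000044594, chr1:107045587-107052303) held 5, 14 and 3 counts in control replicates 1 to 3, or 0.415, 1.24 and 0.195 CPM. The libraries labelled dKO held 102, 50 and 460 counts, or 7.39, 3.41 and 25.9 CPM. Replicate 3 was the highest of these by more than 3 times, and the groups did not overlap. Its mean rose from 0.616 ± 0.549 to 12.2 ± 12.01 CPM (SD over n = 3), and the fitted log2 change was 4.02 with SE 0.93 (adjusted p 0.0218 by edgeR). Serpinb3a passed the filter on low counts only through the libraries where it was high. The receptor-gene density corresponds to 2.63 counts in control replicate 1 and 5.201 in control replicate 2, and with it subtracted the log2 fold change was 4.47 (adjusted p 0.0139 by edgeR). It passed in 11 of the 14 alternatives that tested it. Among the alternatives where it did not pass were those without control replicate 1 (3.88, adjusted p 0.127 by edgeR) and with limma-voom (4.19, limma adjusted p 0.113), and without the library labelled dKO of replicate 3 it was 2.84 and passed.

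The other pair of copies was almost silent. Serpinb3c (ENSMUSG00000073601, chr1:107271201-107278371) held 2, 3 and 0 counts in the controls, against 5, 0 and 0 in the libraries labelled dKO. Serpinb3d (ENSMUSG00000058017, chr1:107078167-107083506) held 0, 8 and 3 against 1, 0 and 8 counts. The receptor-gene density alone corresponds to 2.67 and 5.29 counts of Serpinb3c, and to 1.96 and 3.88 counts of Serpinb3d, in control replicates 1 and 2. A count of 0 allows up to 3 counts, which is 0.169 to 0.265 CPM in these libraries, so no difference was detectable for either gene at this depth. Serpinb3b thus held 935 to 1938 counts in libraries where Serpinb3c, with 93.1% identical coding sequence, held 5 or fewer.

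The sum of the 4 Serpinb3 genes does not depend on how reads were split among them. It was 9.38, 10.7 and 57.2 CPM in control replicates 1 to 3, against 101, 67.2 and 136 CPM in the libraries labelled dKO. The group means were 25.7 ± 27.2 and 101 ± 34.2 CPM (SD over n = 3), and as with Serpinb3b the groups did not overlap and control replicate 3 stood between. The log2 fold change of the sum was 1.90 (SE 0.79) and did not pass the threshold (adjusted p 0.170 by edgeR). It passed in 3 of 16 alternatives, among them the fit without control replicate 3, at 3.33 (adjusted p 0.000772 by edgeR), and limma-voom, at 2.27 (limma adjusted p 0.0301).

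The unprocessed pseudogene Gm8080 (chr1:107020137-107025325, minus strand), next to Serpinb3a, moved in the same libraries. It held 8 to 25 counts in the controls and 73 to 566 where labelled dKO, or 0.664, 1.06 and 1.63 against 18.0, 4.98 and 31.9 CPM. The fitted log2 change was 3.79 with SE 0.69 (adjusted p 0.0101 by edgeR). The call was lost under limma-voom (3.62, limma adjusted p 0.0864) and without control replicate 1 (3.57, adjusted p 0.0698 by edgeR), and Gm8080 too met the filter on low counts only through the libraries labelled dKO. As for Serpinb3a, replicate 3 was highest and replicate 2 lowest among the libraries labelled dKO. Only 4.97% of the windows of 150 bases in Gm8080 occurred unchanged in Serpinb3a, and how many reads the pair exchanged was not tested.

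Serpinb7 fell. It encodes megsin, and variants of the human gene cause a palmoplantar keratosis. Serpinb7 (ENSMUSG00000067001, chr1:107399655-107452689, plus strand) was at 477, 265 and 339 CPM in control replicates 1 to 3, against 125, 162 and 101 CPM in the libraries labelled dKO, from 1729 to 5742 counts. Every library labelled dKO lay below the lowest control. The mean fell from 361 ± 107 to 129 ± 30.5 CPM (SD over n = 3), and the fitted log2 change was -1.56 with SE 0.24 (adjusted p 0.00506 by edgeR). It passed the threshold in all 15 alternatives run, between -1.73 and -1.29. No other tested member passed in all of its alternatives. Set against Serpinb5 in the same library, a gene chosen after its values were seen, Serpinb7 had 51.3, 33.5 and 39.2 counts per 100 counts of Serpinb5 in the controls, against 12.6, 16.7 and 11.8 in the libraries labelled dKO, a ratio that does not depend on scaling between libraries.

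Serpinb12, a clade B inhibitor of trypsin-like serine proteases, had higher values. Serpinb12 (ENSMUSG00000059956, chr1:106934449-106957080, plus strand) was at 40.4, 19.3 and 22.7 CPM across the controls, against 47.1, 64.9 and 48.9 CPM in the libraries labelled dKO, from 219 to 952 counts. The groups did not overlap, and control replicate 1 came nearest to the other group. The fitted log2 change was 0.88 (SE 0.28), and it missed the threshold (adjusted p 0.0599 by edgeR). It passed in 5 of 15 alternatives, among them the fit without control replicate 1 (1.28, adjusted p 0.00977 by edgeR) and DESeq2 (0.89, DESeq2 adjusted p 0.0157), and its adjusted p was 0.000114 to 0.167 over all of them. In counts per 100 counts of Serpinb5, Serpinb12 had 4.35, 2.44 and 2.62 in the controls, against 4.73, 6.72 and 5.73 in the libraries labelled dKO.

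Serpinb2, the inhibitor of the urokinase plasminogen activator also called PAI-2, was the most abundant member. Serpinb2 (ENSMUSG00000062345, chr1:107511423-107535478, plus strand) was at 1449.9, 1467 and 1810.1 CPM across the controls, against 1341.5, 789 and 1258 CPM in the libraries labelled dKO, from 11572 to 27801 counts. The groups did not overlap, but replicate 1 labelled dKO lay close to control replicates 1 and 2. The fitted log2 change was -0.55 (SE 0.20) and did not pass the threshold (adjusted p 0.0878 by edgeR). DESeq2 called it at the same size (-0.55, DESeq2 adjusted p 0.0450), and without replicate 2 labelled dKO it was -0.32 (adjusted p 0.264 by edgeR). The tested gene Serpinb10, which shares exonic bases with it, was at 33.005 ± 10.7 and 45.7 ± 8.63 CPM (SD over n = 3; fitted log2 change 0.39, SE 0.25, adjusted p 0.302 by edgeR).

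The other tested members did not pass, and their groups overlapped. Serpinb5 (ENSMUSG00000067006, chr1:106861173-106883348, plus strand) encodes maspin, a non-inhibitory clade B serpin known as a tumour suppressor of epithelia. It held 929.9, 792 and 866 CPM across the controls, against 996, 966 and 854 CPM in the libraries labelled dKO (fitted log2 change 0.045, SE 0.13, adjusted p 0.841 by edgeR). Serpinb8 (ENSMUSG00000026315, chr1:107590006-107610484, plus strand), an inhibitor of furin-like proteases whose human gene is mutated in a peeling skin disorder, held 230.2, 204 and 173.5 against 214, 254 and 232 CPM (fitted log2 change 0.13, SE 0.15, adjusted p 0.584 by edgeR). Serpinb13 (ENSMUSG00000048775, chr1:106980984-107001195, plus strand), an inhibitor of cathepsins L and K, held 1.66, 2.39 and 6.77 CPM across the controls, against 3.69, 3.07 and 4.62 CPM in the libraries labelled dKO. Control replicate 3 was the highest of the 6, and the fitted log2 fold change was -0.0016 (SE 0.51, adjusted p 0.998 by edgeR), which became 0.87 without that control (adjusted p 0.128 by edgeR).

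**Figure D2:**
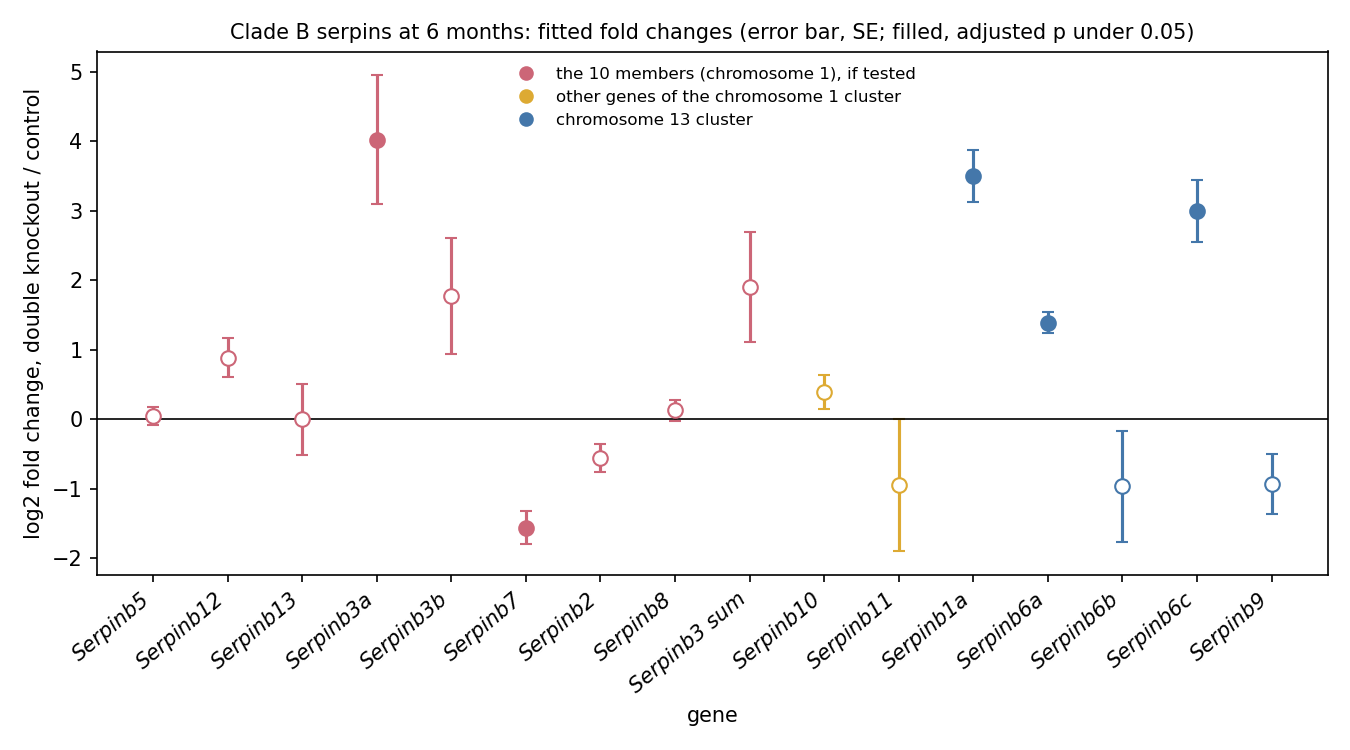
Fitted log2 fold changes (vertical axis, double knockout over control at 6 months) with their standard errors for each tested clade B serpin and the Serpinb3 sum (horizontal axis), drawn as error bars, with filled points for an edgeR adjusted p under 0.05. On chromosome 1 Serpinb3a (4.02) and Serpinb7 (-1.56) are filled and lie on opposite sides of 0, and on chromosome 13 Serpinb1a, Serpinb6a and Serpinb6c are filled and above it. Serpinb3a and Serpinb6c were tested only because of their counts in the double knockout libraries, so their filled points follow from that selection in part.

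**Figure D3:**
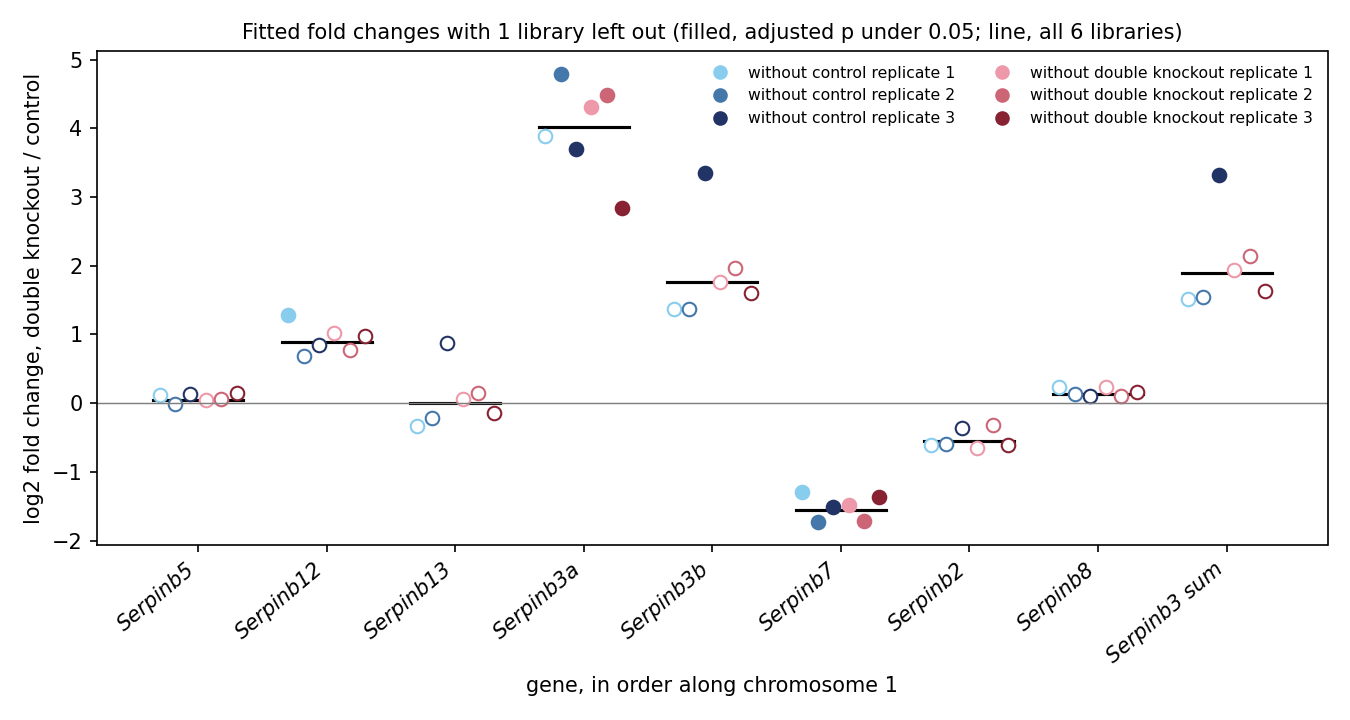
Log2 fold changes (vertical axis) of the tested members and the Serpinb3 sum (horizontal axis) with all 6 libraries (line) and with each library left out in turn (points, filled where the edgeR adjusted p was under 0.05). The 6 points of Serpinb7 are all filled and stay between -1.73 and -1.29, while those of Serpinb3b and the sum are filled only without control replicate 3.

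In the libraries labelled Tfap2b knockout at 3 weeks, Serpinb2 was at 614 and 1228 CPM, Serpinb5 at 414 and 768 CPM and Serpinb7 at 123 and 223 CPM. Replicate 1 was the lower of the pair for each of these abundant members, and Serpinb8 followed the same order at 159.9 and 322 CPM. Markers of other cell types stood apart in that library: all 5 fibroblast and all 3 endothelial genes were higher in replicate 1, with Col1a1 at 1128 against 7.67 CPM and Cdh5 at 185 against 0 CPM, and the sebaceous gene Scd1 was at 8197 against 524 CPM. Their part in the serpin values was not tested. Serpinb12 was at 59.9 and 93.6 CPM. Serpinb3b was at 19.0 and 26.1 CPM, Serpinb13 at 1.85 and 1.92 CPM, Serpinb3a at 7 and 13 counts, Serpinb3d at 2 and 15 counts and Serpinb3c at 0 counts in both. Age and genotype both differ from the other groups and cannot be told apart.

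The genes around the members are given as a description, and 14.9% of all tested genes passed. Between Serpinb5 and Serpinb8 the files list 10 other genes, 7 of them pseudogenes, of which 4 were tested and only Gm8080 passed. Serpinb11 was at 16.8, 42.9 and 26.8 CPM across the controls, against 5.72, 3.61 and 36.9 CPM in the libraries labelled dKO (fitted log2 change -0.95, SE 0.95, adjusted p 0.534 by edgeR), with replicate 3 labelled dKO again the highest of its group. Of the 5 nearest tested protein-coding genes on each side, 2 of 10 passed, Phlpp1 at -0.47 (adjusted p 0.0430 by edgeR) and Dsel at -0.89 (adjusted p 0.0209 by edgeR). The fitted log2 fold changes of the 10 flanking genes ranged from -1.32 to 0.48. Vps4b, the nearest of them to Serpinb5, was at 0.21 (adjusted p 0.309 by edgeR).

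A second clade B cluster lies on chromosome 13. With Serpinb10 and Serpinb11 of chromosome 1, the list of other clade B serpins held 17 genes, of which 7 were tested, 3 were higher, 0 were lower and 4 did not pass. Over all genes tested, 6.26% were higher and 8.59% lower. The median log2 fold change of the tested genes of this list was 0.39, against -0.035 over all genes. Serpinb6a, an intracellular inhibitor of serine proteases such as cathepsin G, rose from 36.8 ± 0.799 to 102 ± 13.6 CPM (SD over n = 3; fitted log2 change 1.39, SE 0.15, adjusted p 0.000860 by edgeR). Serpinb1a, the inhibitor of neutrophil elastase, rose from 1.57 ± 0.447 to 20.2 ± 7.34 CPM (SD over n = 3; fitted log2 change 3.49, SE 0.37, adjusted p 0.000729 by edgeR), and Serpinb6c rose from 0.787 ± 0.408 to 7.69 ± 0.577 CPM (SD over n = 3; fitted log2 change 3.00, SE 0.45, adjusted p 0.00272 by edgeR). Like Serpinb3a, Serpinb6c met the filter on low counts only through the libraries labelled dKO. The count and the median of this list follow from that selection in part. These 3 genes passed in every alternative that tested them, 15 of 15 for Serpinb1a and Serpinb6a and 14 of 14 for Serpinb6c, and whether the clusters of chromosomes 1 and 13 differ from each other was not tested. The 10 genes of this list that were not tested held 69, 89 and 13 counts together in control replicates 1 to 3, against 0 to 5 in the libraries labelled dKO, and the receptor-gene density alone corresponds to 29.4, 58.2 and 2.70 counts in those controls.

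Of the 8 neutrophil markers, 3 had higher values in the libraries labelled dKO and 5 had lower means. The 8 genes summed to 0.846 to 8.39 CPM across the controls, against 35.5 to 269 CPM in the libraries labelled dKO. The higher ones were S100a8, S100a9 and Cxcr2, which met the filter on low counts only through the libraries labelled dKO. Cxcr2 passed the threshold (adjusted p 9.9e-05 by edgeR) and S100a8 and S100a9 did not (0.119 and 0.0797 in edgeR). Csf3r had a mean of 1.64 CPM in the controls and 0.970 CPM in the libraries labelled dKO (adjusted p 0.688 by edgeR). Ly6g, Mpo, Elane and Retnlg were too low to be tested. Their control means were 0.173, 0.949, 0.433 and 0.260 CPM, in that order. In control replicate 3 they were at 0, 0.130, 0 and 0 CPM, and Csf3r was at 0 CPM. The control means of these 5 genes thus came mostly from control replicates 1 and 2, where the receptor-gene density was high. The part of that density in these low values was not tested. Ly6g, Mpo, Elane and Retnlg were each at 0 to 0.273 CPM in the libraries labelled dKO, with Mpo and Elane at 0 in all 3. S100a8 was at 24.0, 4.23 and 172 CPM there, the same order of libraries as Serpinb3a and Gm8080. Of the 8 tested granular and cornified genes 0 passed. Among the libraries labelled dKO, Flg, at 99.6, 149 and 586 CPM, and Tgm3, at 18.4, 15.7 and 83.6 CPM, were also highest in replicate 3. Ivl, Tgm1, Hrnr and Casp14 were highest in replicate 3 too. Lor and Aspg went the other way, both highest in replicate 2, and Aspg was lowest in replicate 3. Basal keratinocyte markers, 8224 to 10485 CPM summed in the controls, were at 15753 to 18754 CPM in the libraries labelled dKO. Within that list only Krt15 had a lower mean (1026 against 412 CPM, adjusted p 0.0513 by edgeR), and Trp63 did not pass (adjusted p 0.172 by edgeR). The part of any of these markers in the serpin values was not tested.

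The proteases and other inhibitors that these serpins work beside are given from 5 further lists, against a background of 6.26% of all tested genes higher and 8.59% lower. Among 10 tested genes of the list of legumain and the papain-like cathepsins, the latter the kind that Serpinb3 and Serpinb13 proteins inhibit, 2 were higher, 0 lower and 8 did not pass (median log2 fold change -0.22). Ctsc, which activates serine proteases of granules, rose from 58.2 ± 15.9 to 128 ± 27.6 CPM (SD over n = 3; fitted log2 change 1.06, adjusted p 0.0180 by edgeR), and Ctsb from 190 ± 24.3 to 306 ± 38.1 CPM (SD over n = 3; 0.61, adjusted p 0.0300 by edgeR), passing in 13 and 9 of 15 alternatives. Ctsl, a target of Serpinb13, was at 81.1 ± 15.9 and 54.2 ± 21.3 CPM (SD over n = 3) and did not pass (fitted log2 change -0.65, adjusted p 0.134 by edgeR).

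Among 17 tested epidermal serine proteases, 1 was higher, 3 lower and 13 did not pass (median log2 fold change 0.044). Klk5 and Klk7, kallikreins that cut desmosomal proteins in the cornified layer, fell, Klk5 from 92.1 ± 40.04 to 18.0 ± 7.11 CPM (SD over n = 3; fitted log2 change -2.42, adjusted p 0.00742 by edgeR) and Klk7 from 295 ± 62.2 to 148 ± 11.05 CPM (SD over n = 3; -1.07, adjusted p 0.00495 by edgeR). Klk6, of the same family, rose from 3.90 ± 1.14 to 26.6 ± 6.06 CPM (SD over n = 3; 2.66, adjusted p 0.000875 by edgeR). These 3 kallikreins passed in 15 of 15 alternatives each. Prss8, a membrane-anchored protease needed for barrier formation, fell from 47.5 ± 14.6 to 24.3 ± 6.00 CPM (SD over n = 3; -1.04, adjusted p 0.0301 by edgeR) and passed in 10 of 15.

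In the plasminogen activation list, the setting of Serpinb2, 1 of 6 tested genes was higher, 2 lower and 3 did not pass (median log2 fold change -1.13). Plau, which encodes the urokinase that Serpinb2 inhibits, rose from 14.8 ± 6.503 to 30.4 ± 4.13 CPM (SD over n = 3; fitted log2 change 0.96, adjusted p 0.0468 by edgeR) but passed in only 8 of 15 alternatives, and in none of the 5 fits that left out control replicate 1 or 2 or any 1 library labelled dKO. Plat, the tissue-type activator, fell from 53.3 ± 25.7 to 13.4 ± 6.49 CPM (SD over n = 3; -2.06, adjusted p 0.0204 by edgeR), and Serpine2, an inhibitor of it, fell from 6.43 ± 1.05 to 1.46 ± 0.557 CPM (SD over n = 3; -2.11, adjusted p 0.00934 by edgeR). They passed in 11 and 14 of 15 alternatives. Fibroblast markers, summed over 5 genes, were at 51.6 to 156 CPM across the controls, against 11.7 to 22.9 CPM in the libraries labelled dKO, and their part in the values of Plat, Serpine2 and Timp3 was not tested.

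Of 10 tested other inhibitors of the epidermis, 1 was higher, 3 lower and 6 did not pass (median log2 fold change -0.37). Spink5, which encodes the inhibitor of Klk5 and Klk7, fell from 1298 ± 127 to 676 ± 45.7 CPM (SD over n = 3; fitted log2 change -1.02, adjusted p 0.00241 by edgeR), and Timp3, an inhibitor of metalloproteinases, fell from 321 ± 56.6 to 41.4 ± 18.1 CPM (SD over n = 3; -3.02, adjusted p 0.000991 by edgeR). Both passed in 15 of 15 alternatives. Wfdc5 fell (-1.03, adjusted p 0.0325 by edgeR) and Cstb, a cystatin that inhibits cathepsins inside cells, rose (0.70, adjusted p 0.0314 by edgeR), each passing in 10 of 15. In the stefin A cluster of cysteine protease inhibitors on chromosome 16, whose near copies can share reads, 5 of 6 tested genes were higher and Csta1 did not pass (median log2 fold change 4.33). The 5 were BC100530 at 7.73, BC117090 at 5.96, Stfa1 at 4.48, Stfa2 at 4.18 and Stfa3 at 3.72, which passed in 14, 11, 13, 14 and 7 of 14 alternatives. All 5 met the filter on low counts only through the libraries labelled dKO, where they were high, so the count and the median of this list follow from that selection in part and are given as a description. Stefin A genes are also made by neutrophils, whose markers were at the values given above.

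**Figure D4:**
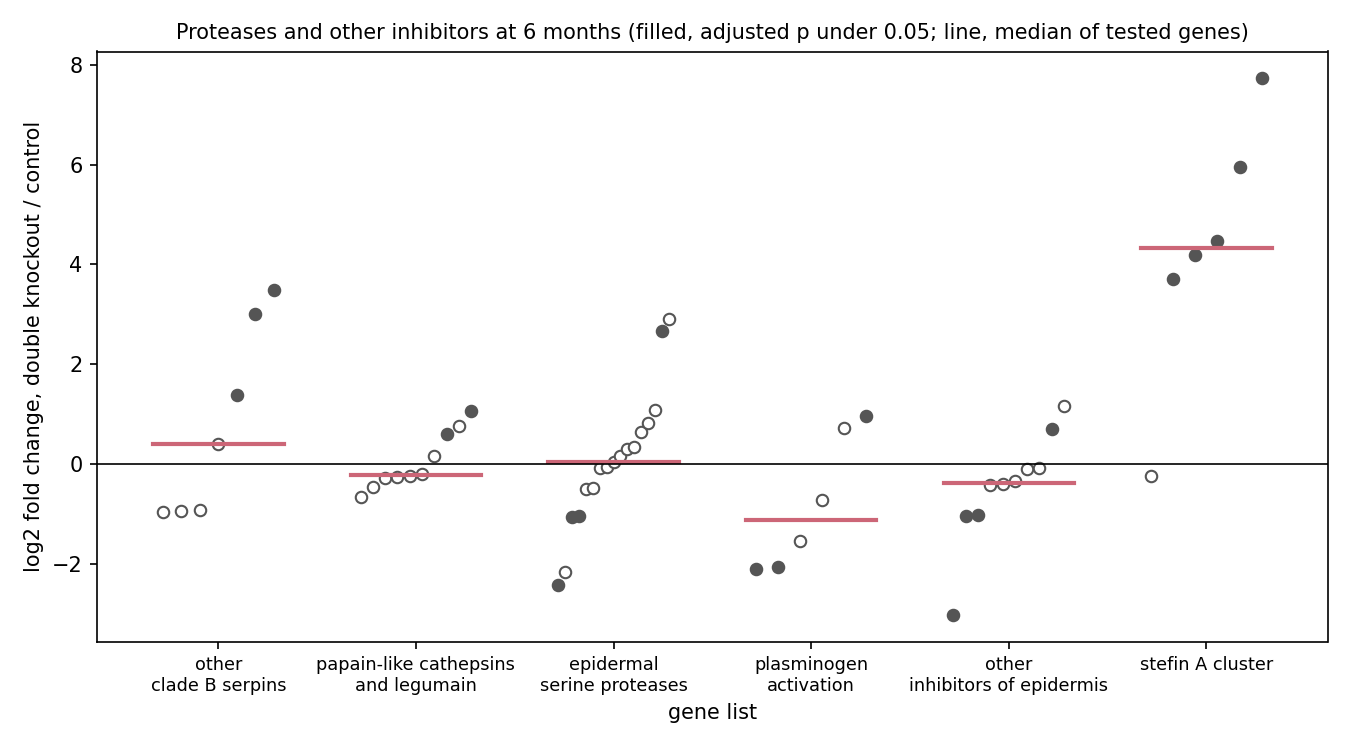
Log2 fold changes (vertical axis, double knockout over control at 6 months) of the tested genes in 6 fixed lists (horizontal axis), 1 point per gene, filled where the edgeR adjusted p was under 0.05, with the median of each list as a line. The plasminogen activation median is -1.13, and the 5 filled stefin A genes were tested only because of their counts in the double knockout libraries.

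The genes whose log2(CPM + 1) followed the summed Serpinb3 genes most closely over the 8 libraries were B230344G16Rik (Pearson r = 0.992), Naa16 (0.982) and Rmdn1 (0.981). Those most like Serpinb2 were Malt1 (0.975), Gm42856 (0.965) and Gm26764 (0.963). These 8 points share groups, ages and library depth, and the values are a description of the pattern only. Naa16 was at 14.6, 15.4 and 30.8 CPM in control replicates 1 to 3, against 44.6, 36.4 and 38.5 CPM in the libraries labelled dKO, so control replicate 3 stood between there too.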

How the data were processed

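The authors deposited raw read counts per gene, 1 file per sample. Per the submitters' processing notes, Trimmomatic 0.36, STAR 2.5.2b and featureCounts of Subread 1.5.2 were used; the notes name GRCm38 and GRCh38 without roles, and strand and multimapping settings are not given in the sources used here. Of the 49315 identifiers, 99.3% were in GENCODE M21 (GRCm38), which gave symbols and coordinates. Files in which every gene was 0 were left out.

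The 3 double knockout and 3 control libraries at 6 months were compared with edgeR 4.0.16 (filterByExpr, TMM, robust quasi-likelihood fit, prior count 2), with Benjamini-Hochberg adjustment over 17755 genes and a threshold of 0.05. CPM were computed on total counts without TMM. The 15 alternative settings included DESeq2 1.42.0, limma-voom (limma 3.58.1), other scalings and filters, subtraction of the receptor-gene density (1418 genes) and leaving out each library. Scripts were tested on simulated data. Named genes were all members, the other genes between them, the nearest 5 tested protein-coding genes on each side, the genes past the threshold in 6 lists, and the 3 genes most correlated with Serpinb2 and with the Serpinb3 sum. Members and lists were chosen with earlier results of these data known. Intervals and the limit of 3 counts for a count of 0 cover counting error only.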

Additional observations from a re-analysis of the deposited data

How the results depend on the processing

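Direction was followed through the alternatives for the members, the Serpinb3 sum, Gm8080 and the genes of the 6 lists that passed. Among these, no value past the threshold changed direction. Serpinb5 and Serpinb13, which passed in none, changed sign in some. Other genes past the threshold were not followed in this way. The 2637 genes past the threshold (1111 higher, 1526 lower) became 4809 (1941 and 2868) without a filter on low counts, 1548 (658 and 890) with all 8 libraries in 1 fit, and 668 to 7544 (313 to 2733 higher, 355 to 4811 lower) when 1 library was left out, lowest without double knockout replicate 1 and highest without control replicate 3. The labels do not say whether replicate numbers pair the samples. Correlations of same-numbered deviations were 0.028, -0.16 and -0.057, against -0.11 to 0.17 between different numbers, and so few libraries cannot decide it. With the replicate block, 1729 genes passed (720 higher, 1009 lower), Serpinb3a missed the threshold at 3.63 (edgeR adjusted p 0.0739) and the Serpinb3 sum passed at 2.33 (edgeR adjusted p 0.0241). Serpinb12 passed at 0.95 on total counts, 1.00 without a filter, 0.89 in DESeq2 and 0.95 in limma-voom, and ranged from 0.69 to 1.28 with 1 library left out. Serpinb2 passed only in DESeq2 (-0.55), with a range of -0.65 to -0.32. Serpinb3a did not pass in limma-voom (4.19), with a range of 2.84 to 4.79, and a minimum of 10 counts in every library removed it. Serpinb3b passed in limma-voom (2.23), with a range of 1.37 to 3.35, and the sum in limma-voom (2.27), with a range of 1.51 to 3.33. The sum with Gm8080 added, chosen after seeing the data, was 2.08 (edgeR adjusted p 0.147). Genes of the 6 lists that were lower numbered 8, and 5 with all libraries in 1 fit and 5 to 13 with 1 library left out. The share of calls that were higher was 42.1% with TMM and 50.9% on total counts. The cause of these differences was not tested. Depth limits Serpinb3c and Serpinb3d, which had too few counts for the main fit and for which no fold change is given.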
